A study of Mus musculus with 106 samples.

Results

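The 10 genes described here encode the enzymes of fatty acid synthesis in mouse liver together with their regulator Thrsp. They are Acly, Me1, Acaca, Acacb, Fasn, Elovl6, Elovl5, Scd1, Scd2 and Thrsp, taken by name from 21887 protein-coding genes in a RefSeq gene table, and all 10 were found. A ChIP peak was counted for a gene when its centre lay in the gene body or within 10 kb of either end on mm10. This span also reaches other protein-coding genes at Acly, Me1, Acaca, Acacb, Fasn and Thrsp, so a peak can count for a neighbour too. Accessibility was the percent of the gene body inside regions that gained ATAC signal over vehicle. The study set livers of WT mice beside livers of Foxa2-KO mice, which lack the forkhead pioneer factor Foxa2, in 106 samples and 45 groups. Animals received vehicle, the FXR agonist GW4064, or 1 of 2 LXR agonists, GW3965 and T0901317 (T09). For the ATAC, Foxa2 and FXR samples the labels give oral gavage 4 h before harvest and an age of 8 to 12 weeks. The series text speaks of injection. For the LXR and PPAR samples the labels give strain C57BL/6 and an age of 3 months, with neither time nor route. The allele is spelled out for the mutant PPAR samples as Foxa2loxP/loxP;Alfp.Cre, that is, deletion by a Cre driven from albumin and alpha-fetoprotein control elements in the liver epithelial lineage, so other liver cells keep the gene.

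The authors deposited 1 peak list per ChIP group or ATAC comparison, so no comparison between conditions could be tested, and every value below describes 1 list. The 27 lists were 4 of ATAC-seq (GW3965, T09 and GW4064 in WT, GW4064 in Foxa2-KO, each over its own vehicle arm), 5 of Foxa2 ChIP in WT, and in both genotypes 4 of FXR ChIP, 6 of LXR ChIP and 8 of PPAR ChIP. The LXR labels write the agonist as GW with no number. An ATAC list rests on 2 samples per arm with GW3965 and T09 and 3 per arm with GW4064. A ChIP list rests on 1 sample for Foxa2 (for Veh, GW3965 and T09 labelled as holding 3 replicates) and for LXR in WT, 3 for LXR in Foxa2-KO, and 2 for FXR and PPAR. The series text instead gives 3 replicates for Foxa2 and 4 for LXR. The lists ran from 110 to 82561 entries, and hold no read counts, so depth behind a peak is unknown and a gene without a peak is one where no peak was called. In whole liver, more signal per cell and more cells with signal cannot be told apart.

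De novo fatty acid synthesis turns citrate leaving the mitochondrion into palmitate and then into longer and less saturated chains. Acly (ATP citrate lyase) releases cytosolic acetyl-CoA and Me1 (malic enzyme) makes NADPH. Acaca and Acacb (the acetyl-CoA carboxylases, cytosolic and mitochondrial) make malonyl-CoA, and Fasn (fatty acid synthase) assembles the chain. Elovl6 and Elovl5 lengthen it, Scd1 and Scd2 (stearoyl-CoA desaturases) place a double bond at carbon 9, and Thrsp (Spot 14) is a thyroid hormone responsive protein that raises synthesis. In liver the programme is driven by SREBP-1c and ChREBP, and the oxysterol receptor LXR raises it both through Srebf1 and at several of the genes themselves, whereas the bile acid receptor FXR is known to restrain it.

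Promoters with called peaks are shown here because receptor or Foxa2 peaks lay on their letters. The RefSeq promoter table (GRCm38.p6, 250 bases before to 50 after a start) had entries for 8 of the 10 genes, and had none for Scd1 and Scd2. The 250 bases before the start are printed 5′ to 3′ on the gene strand. In Fasn (chr11:120824548-120824797, minus strand) the capitals mark the 57 bases that 2 FXR and 2 LXR peaks of WT liver have in common. In Elovl6 (chr3:129532136-129532385, plus strand) they mark the 189 bases common to the Foxa2 peaks with GW3965, T09 and GW4064. In Elovl5 (chr9:77917115-77917364, plus strand) they mark the 181 bases of a Foxa2 peak called with GW3965.
Fasn: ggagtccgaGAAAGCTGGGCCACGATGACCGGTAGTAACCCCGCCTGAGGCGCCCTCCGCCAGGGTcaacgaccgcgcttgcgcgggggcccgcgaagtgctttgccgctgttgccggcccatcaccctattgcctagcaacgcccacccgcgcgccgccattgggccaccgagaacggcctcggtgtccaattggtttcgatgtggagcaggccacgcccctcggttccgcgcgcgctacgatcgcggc
Elovl6: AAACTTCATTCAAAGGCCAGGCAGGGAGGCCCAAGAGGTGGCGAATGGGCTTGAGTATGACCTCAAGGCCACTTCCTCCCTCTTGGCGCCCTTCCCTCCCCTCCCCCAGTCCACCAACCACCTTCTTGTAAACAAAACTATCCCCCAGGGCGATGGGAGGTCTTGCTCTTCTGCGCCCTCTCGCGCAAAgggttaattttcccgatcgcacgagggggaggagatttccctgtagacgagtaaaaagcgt
Elovl5: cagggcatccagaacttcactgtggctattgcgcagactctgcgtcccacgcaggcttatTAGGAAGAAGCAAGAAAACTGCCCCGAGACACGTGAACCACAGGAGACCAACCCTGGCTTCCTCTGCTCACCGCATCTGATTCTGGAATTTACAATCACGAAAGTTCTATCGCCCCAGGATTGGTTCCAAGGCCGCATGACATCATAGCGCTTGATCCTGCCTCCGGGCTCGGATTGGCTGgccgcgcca

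Within the 57 common bases at Fasn lay 2 copies of NGGTNA 4 bases apart, the spacing bound by LXR with its partner RXR. They were on the strand opposite the gene, at bases -225 to -210 from the start (chr11:120824757-120824772), and read as follows with the 2 copies in capitals.
Fasn, opposite strand: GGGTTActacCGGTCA
Searched on both strands of the 300-base promoters, this loose pattern was present in 0.718% of 32851 promoters and in 1 of the 8 genes. The exact AGGTCA copies 4 bases apart were in 0.0152% of promoters, the copies 1 base apart (the PPAR spacing) in 0.0396%, and AGGTCA followed after 1 base by its inverse TGACCT (the FXR arrangement) in 0.00913%, and in none of the 8 genes. The forkhead letters TGTTTAC were in 3.65% of promoters. Elovl6 was the 1 gene of the 8 that held them, at -123 to -117 on the opposite strand, inside the capitals of the Elovl6 line. The Elovl5 capitals hold no TGTTTAC, but hold the E-box CACGTG at -161 to -156, a pattern in 7.15% of promoters. The looser forkhead letters TNTTTAC (12.4% of promoters), which take in every TGTTTAC, were found again in Elovl6 alone of the 8 genes. The sterol element TCACNCCAC (1.24%) was in none of these windows. The CCAAT box, in 37.4% of all promoters, was in 6 of the 8 genes, Acly, Me1, Acacb, Fasn, Elovl5 and Thrsp. A match describes letters only.

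Accessibility gained with GW3965 in WT liver ran over nearly the whole of 3 genes. It covered 100% of the Thrsp body, 94.8% of Scd1 and 88.5% of Fasn, and these were the 3 of 10 genes at or past a limit of 25% of the body. Of all genes, 2.26% reached that limit. Elovl6 stood just under it at 20.7%, which in this long gene of 106.1 kb is 21.95 kb of gained regions, more than the 17 kb in Fasn or the 12.57 kb in Scd1. The other 6 genes lay between 0.0323% (Me1) and 6.64% (Acacb). The median over the 10 genes was 6.57%, where the median of all genes was 0 and 56.4% of genes had no base in a gained region. Summed over their bodies, 9.91% of the 10 genes was inside gained regions, against 1.21% of all gene bodies.

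The same measure with T09, the other LXR agonist, gave no gene at 25% (1.54% of all genes reached it). Thrsp, Scd1, Scd2 and Fasn had 0% of the body in gained regions with T09, and at Scd1, Scd2 and Fasn no region was gained within 10 kb either. The highest value was 8.82% for Elovl6, followed by 4.26% for Me1 and 2.75% for Elovl5, and the median was 1.54%. Me1 was the gene with more coverage with T09 than with GW3965, with 8 gained regions in its body against 2 that summed to 0.037 kb. Each agonist was called over a vehicle arm of its own, and the difference between the agonists was not tested.

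With GW4064 in WT liver Thrsp again led, at 91.5% of its body, and was the 1 gene past 25% (1.94% of all genes). Scd1 followed at 17.6% and Fasn at 9.79%, and the other 7 genes were at 1.81% or less. In Foxa2-KO liver with GW4064 the order was another. Fasn was at 31.2%, the 1 gene past the limit (1.66% of all genes), Elovl5 at 10.6% and Elovl6 at 3.6%, while Thrsp, Scd1 and Scd2 stood at 0%. The 3 Fasn regions of the mutant came late in their list, at entries 50944 to 75357 of 82561, with the authors' fold over vehicle between 1.07 and 1.395, and a q limit of 0.01 left 0% of the gene covered. The gap between the genotypes was not tested.

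**Figure D1:**
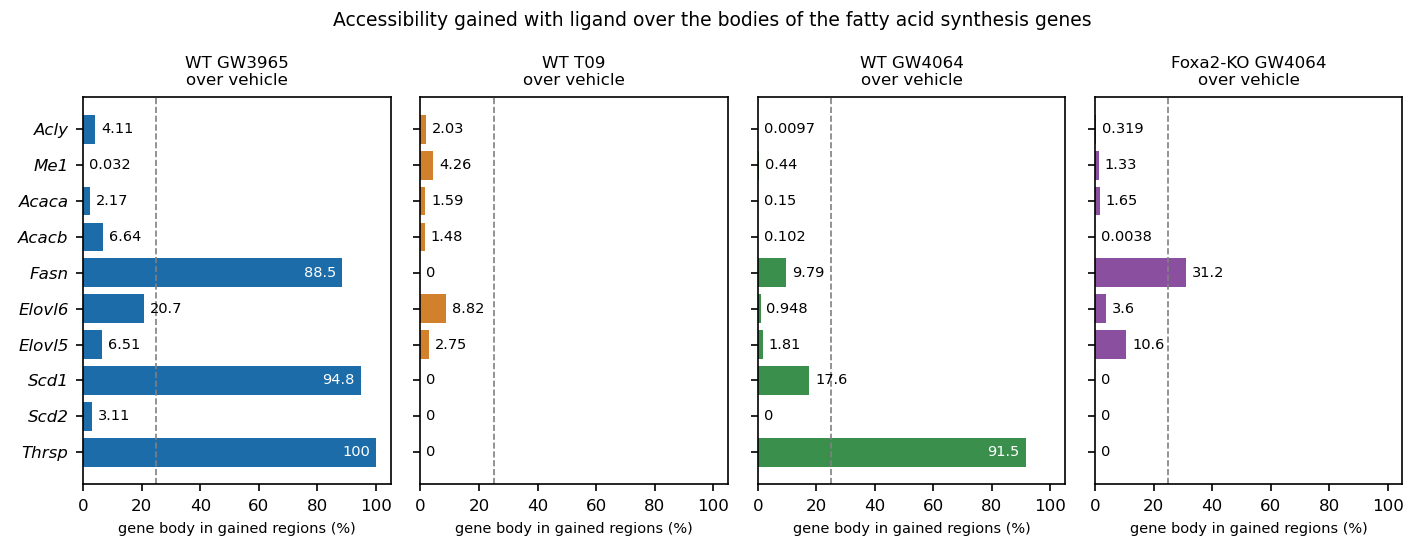
Percent of each gene body (x axis) inside regions with ATAC signal gained over vehicle, for the 10 genes (rows) in 4 comparisons (panels, 1 deposited list each). The dashed line marks 25%. Thrsp, Scd1 and Fasn fill most of their bodies with GW3965 and stand at 0 with T09.

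Promoter windows gave a similar order. With GW3965 all 300 bases around the start of Acly, Fasn, Elovl6, Elovl5 and Thrsp were inside gained regions, 5 of the 8 genes with a window, and 7.93% of all 32851 windows were covered by 50% or more. With T09 no window of the 8 genes was (2.30% of all), with GW4064 in WT that of Thrsp alone was (5.25%), and in Foxa2-KO that of Fasn alone (3.95%). Acly and Elovl5 thus had a fully covered promoter with GW3965 although 4.11% and 6.51% of their bodies were covered. The region over the Acly promoter was entry 10305 of 62838 (q 0.00871, fold 1.2). The one over the Elovl5 promoter was entry 58822 (q 0.044, fold 1.163), and would not pass a q limit of 0.01. The windows of Me1, Acaca and Acacb had 0% in all 4 comparisons. For Acaca and Acacb the window is at a start inside the gene span, and the 5′ end of the span had no window.

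Coverage over a whole body was also found at genes that serve here to check the tissue. Of 6 hepatocyte markers, 4 were past 25% with GW3965, among them Apob at 91.7% and Alb at 86.5%, as were 0 with T09, 3 with GW4064 in WT (Alb at 83.6%) and 0 with GW4064 in Foxa2-KO. Each of the 6 had a Foxa2 peak with Veh, where 12.1% of all genes did. Markers of Kupffer, stellate, sinusoidal endothelial, cholangiocyte and adipocyte cells, 6 genes each, had none past 25% in any WT comparison, and with GW4064 in Foxa2-KO 1, the adipocyte gene Cfd. The Kupffer cell gene Cd68 stood just under the limit with T09, at 24.7%. A Foxa2 peak with Veh lay at 2 of the sinusoidal endothelial and 1 of the adipocyte markers, and at 0 of the other 3 sets. The part of cell type or transcript level in the coverage of Scd1, Fasn and Thrsp was not tested.

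ChIP peaks were found at every one of the 10 genes in at least 1 list. There were 130 in all, 97 of Foxa2, 12 of FXR and 18 of LXR in WT, and 2 of FXR and 1 of LXR in Foxa2-KO liver. Foxa2 peaks lay at 9 of 10 genes in at least 1 of 5 lists (55.9% of all genes) and Scd2 was the exception. By list, 3 genes had one with Veh (12.1%), 9 with GW3965 (36.9%), 9 with T09 (39.2%), 4 with GW4064-Veh (17.8%) and 8 with GW4064 (38.8%). Per 100 kb of gene and flank the 10 genes held 4.04 Foxa2 peaks with GW3965, 3.21 with T09 and 1.86 with GW4064, where all genes together held 1.27, 1.25 and 1.16. With Veh and GW4064-Veh the values were 0.414 and 0.518, against 0.246 and 0.380. Ligand lists were also longer, with 21245 to 25318 entries against 4348 and 7306.

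LXR peaks in WT were found at 8 of 10 genes in at least 1 of 3 lists (36.3% of all genes), all but Acly and Thrsp. With Veh they lay at 3 genes (9.38%), Fasn, Elovl5 and Scd1. With GW they lay at 3 (25.5%), Me1, Fasn and Scd1, and with T09 at 7 (14.6%), all but Acly, Me1 and Thrsp. Fasn and Scd1 were thus the genes with a peak in every WT list. In density the 10 genes held 0.828 LXR peaks per 100 kb with T09 against 0.316 for all genes, 0.414 against 0.191 with Veh, and 0.621 against 0.647 with GW. FXR peaks in WT lay at 6 genes in either list (35.9%), at 4 with GW4064-Veh (13.5%), namely Me1, Fasn, Elovl6 and Thrsp, and at 4 with GW4064 (30.5%), namely Acaca, Fasn, Elovl5 and Thrsp. Per 100 kb the 10 genes held 0.5175 FXR peaks with GW4064-Veh against 0.2766 for all genes, and 0.7245 against 0.796 with GW4064. PPAR peaks were called at none of the genes in any of 8 lists, which together reached 18.9% of all genes. The WT lists named 4.12% of genes with Veh, 0.274% with GW3965, 0.722% with T09 and 4.23% with GW4064, and the Foxa2-KO lists 6.73%, 4.56%, 3.64% and 4.54% in the same order.

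**Figure D2:**
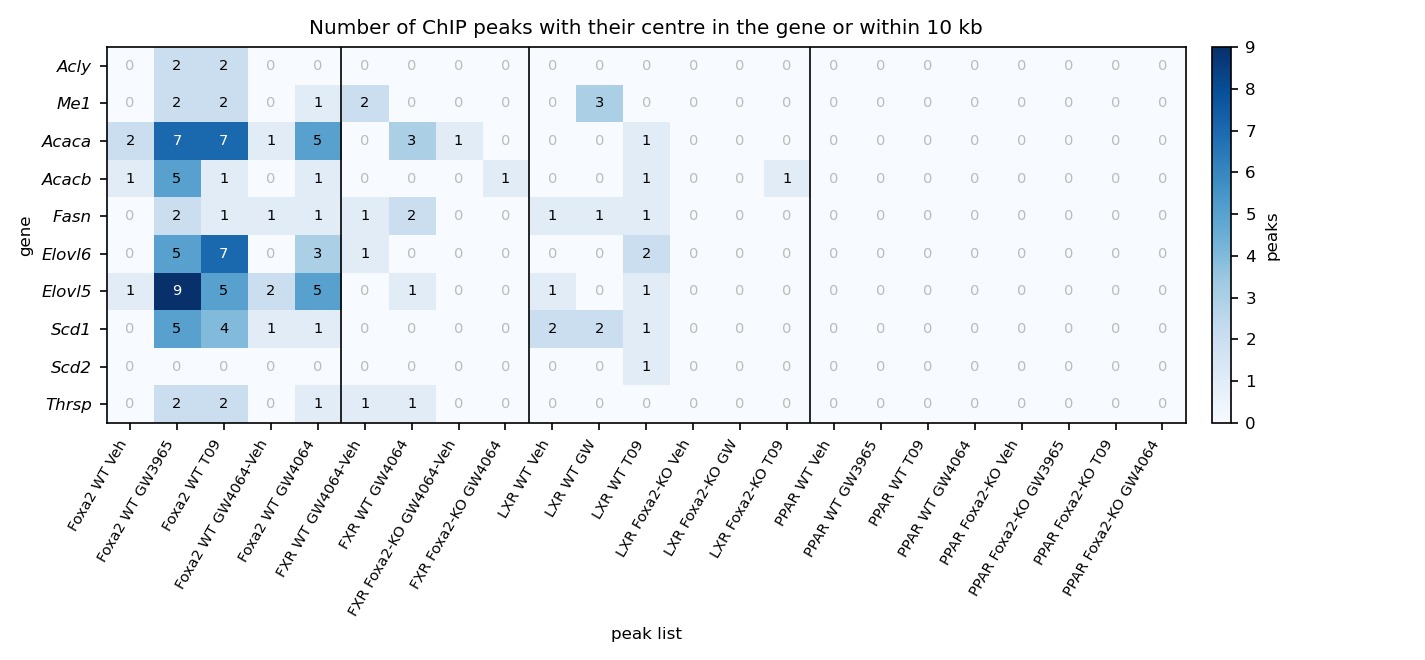
Number of ChIP peaks (colour and figure in each cell) with the centre in the gene or within 10 kb, for the 10 genes (rows) in 23 deposited lists (columns, 1 list per group), with black lines between antibodies. Foxa2 columns with a ligand are the fullest, up to 9 peaks at Elovl5, and the PPAR columns are empty.

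Peaks that overlapped by at least 1 base were merged into 71 sites, of which 28 recurred in 2 or more lists. A pair of antibodies met at 5 of them: on either side of Scd1 (Foxa2 and LXR), before the Fasn start (FXR and LXR), before Thrsp and inside Elovl5 (Foxa2 and FXR). None of the 71 lay in the 102 regions of the genome where lists of all 4 antibodies had peaks. A site or peak was taken to lie in a gained region when at least 1 base overlapped it. Regions gained with GW3965 held 29 of the 71 sites, those gained with T09 held 4, those with GW4064 4 in WT and 7 in Foxa2-KO. Of the Foxa2 peaks called with GW3965, 21 of 39 at these genes (53.8%) lay in a region gained with GW3965, against 25.01% of all 21245 Foxa2 peaks of that list. With T09 the count was 0 of 31 (3.89% of all), and with GW4064 0 of 18 (5.84% of all). All 4 LXR peaks called with Veh also lay in regions gained with GW3965 (2.46% of that whole list did), as did 3 of the 6 called with GW (2.45%) and 2 of the 4 Foxa2 peaks called with Veh (27.4%). Whole-list shares take in peaks anywhere in the genome. Scd1 held 2 of the LXR peaks with Veh and Fasn 1, and with 10 kb flanks these genes were covered to 70.1% and 49.5% with GW3965. For the other ligands no receptor peak at these genes lay in a region gained with its ligand. The counts were 0 of 8 for LXR with T09 (1.88% of all), and for FXR in WT 0 of 7 with GW4064 (1.54%) and 0 of 5 with GW4064-Veh (2.07%). With so few peaks, each of these counts is near its low whole-list share. At Scd1, Scd2 and Fasn no region was gained with T09 within 10 kb, so their LXR peaks with T09 could not lie in one.

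Of the acetyl-CoA and NADPH suppliers, Acly (chr11:100476352-100528000) carried Foxa2 peaks with GW3965 and T09 and peaks of no other antibody. One place 3100 bp before the start recurred in both lists (chr11:100530872-100531328), at entry 7492 of 21245 with GW3965 and 7186 of 25318 with T09, and lay in regions gained with GW3965 and with GW4064 in WT. Entry numbers give the order in the deposited list, which is by q where the list has q. No q is given for Foxa2, for FXR in WT or for ATAC with GW4064 in WT, and what orders these lists is not stated, so their entry numbers are not known to be ranks. Me1 (chr9:86581363-86695914) had 5 Foxa2, 2 FXR and 3 LXR peaks, scattered over 9 sites, and 1 site recurred, a Foxa2 peak in the gene with GW3965 and T09 (chr9:86647753-86648276). Its 3 LXR peaks were all called with GW. The first of them (chr9:86577478-86577583, entry 2126, q 0.0204), 3833 bp beyond the gene's 3′ end, lay in a region gained with T09, and none of the 9 sites lay in a region gained with GW3965.

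For both carboxylases the start in the promoter table lies inside the RefSeq gene span, and distances are given to that start. Acaca (chr11:84129635-84401651) held 22 Foxa2 peaks over 292 kb of gene and flank, as many as Elovl5 over 87.16 kb. Of its 15 sites, 3 were in 4 of the 5 Foxa2 lists. Those at chr11:84164197-84164450 and chr11:84168621-84169172 were called with Veh, GW3965, T09 and GW4064, at -31115 and -26542 bp from that start and still inside the gene span. The one at chr11:84218892-84219280, 23648 bp after it, was called with GW4064-Veh in place of Veh. The LXR peak of the T09 list (chr11:84179600-84179677, q 0.0221) was at entry 153 of 8095 and had no partner in the other lists. The 3 FXR peaks with GW4064 in WT were 5, 8 and 22 bp wide. The other recurring Acaca sites were a Foxa2 site with GW3965, T09 and GW4064 (chr11:84146089-84146402) and one with GW3965 and T09 (chr11:84197983-84198357). None of the 15 Acaca sites lay in a region gained with any ligand in WT.

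Acacb (chr5:114146321-114250761) had 9 sites, of which 2 recurred. A Foxa2 peak at chr5:114152477-114152726 was called with Veh and GW3965, within a region gained with GW3965. An LXR peak 7609 bp after the start (chr5:114173106-114173148) was called with T09 in WT, 31 bp wide at entry 2424 with q 0.029, and with T09 in Foxa2-KO, 43 bp wide at entry 1411 of 2503 with q 0.0465. This was the 1 LXR peak at the 10 genes in mutant liver. It lay in no gained region.

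Fasn (chr11:120805958-120825166) brought FXR and LXR to the same letters. With GW4064 the FXR peak over the promoter spanned 208 bp (chr11:120824599-120824806) and was entry 187 of 22705. With GW4064-Veh it spanned 160 bp (chr11:120824630-120824789) and was entry 4049 of 7883. The LXR peak spanned 57 bp with Veh (chr11:120824732-120824788, entry 508 of 4803, q 0.0268) and 130 bp with T09 (chr11:120824687-120824816, entry 5527 of 8095, q 0.0358). With GW the LXR peak of the gene was another, 2 bp wide and 1138 bp after the start. The Veh peak is the stretch in capitals in the Fasn line, and holds the loose 4-base-spaced copies printed after it. A second FXR peak with GW4064 (chr11:120824157-120824246, entry 1597) lay 346 bp after the start. The promoter site was inside regions gained with GW3965 in WT and with GW4064 in Foxa2-KO, but in neither T09 nor GW4064 regions of WT. No Foxa2 peak was called at this end of the gene in any of the 5 lists. The recurring Foxa2 site was at the other end, at chr11:120805490-120805990, in the lists of GW3965, T09, GW4064-Veh and GW4064.

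Gained regions filled Fasn from end to end with GW3965. The first of them (chr11:120805464-120809961, entry 65, fold 1.68 over vehicle) covered the 3′ end and its Foxa2 site, and the widest (chr11:120817333-120826750, 9418 bp, entry 141, fold 1.26) ran over the promoter. All 5 regions in the gene were among the first 1708 of 62838 entries, with folds from 1.26 to 1.68. At GW4064 in WT, 2 regions in the gene at entries 20809 and 31157 made up the 9.79%.

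**Figure D3:**
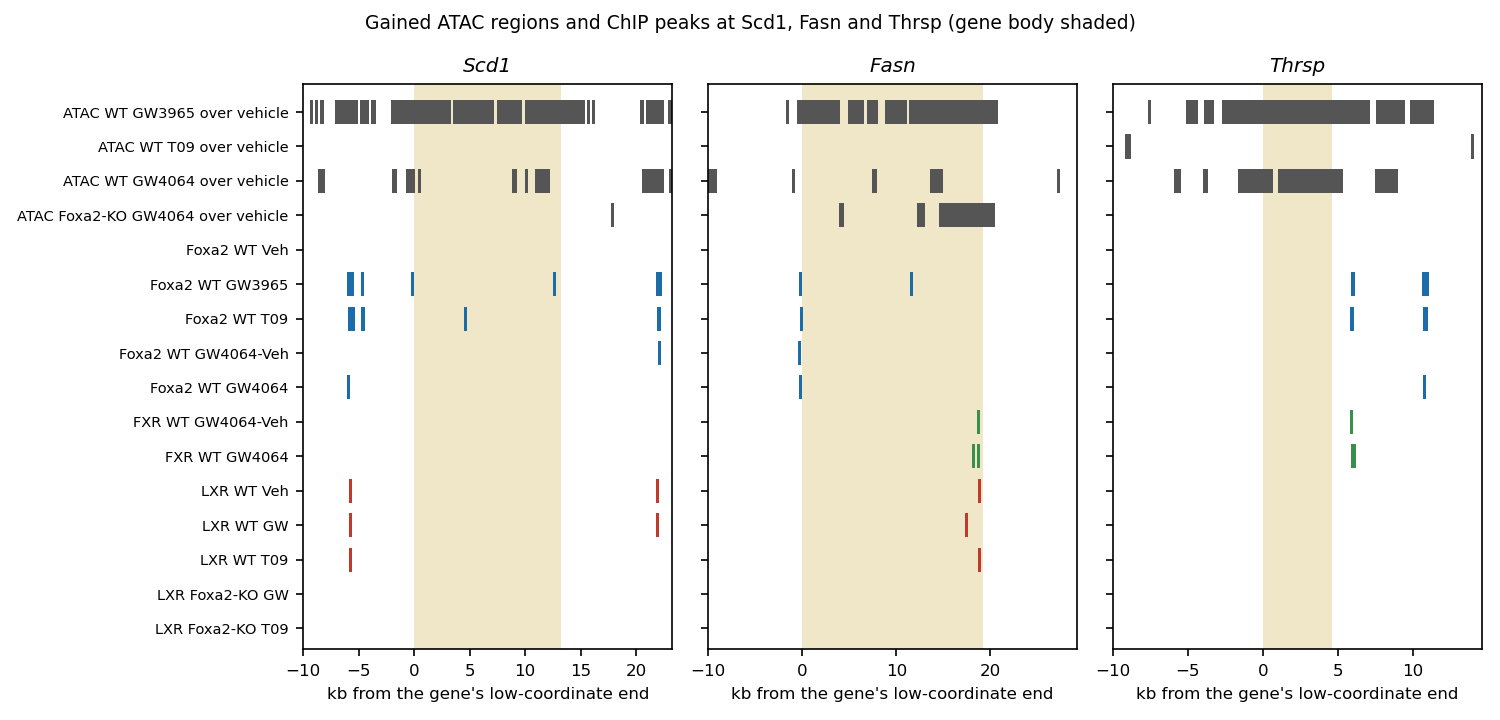
Regions with gained ATAC signal (grey) and ChIP peaks of Foxa2 (blue), FXR (green) and LXR (red) along Scd1, Fasn and Thrsp, with 1 row per deposited list, and distance in kb from the gene's low-coordinate end on the x axis. Very narrow peaks are drawn wider to be visible. The gene body is shaded, the start being on the right for Fasn and Thrsp. LXR and Foxa2 peaks stand on both sides of Scd1, and FXR and LXR peaks coincide near the Fasn start.

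Among the elongases, Elovl6 (chr3:129532386-129638495), which takes palmitate to stearate, had Foxa2 on its promoter with each ligand and with neither vehicle. The peaks were entry 3047 of 21245 with GW3965 (492 bp, chr3:129531963-129532454), 3936 of 25318 with T09 (430 bp) and 4050 of 22666 with GW4064 (296 bp). They share the 189 capitals printed above, which include the forkhead letters, and a region gained with GW3965 (chr3:129531702-129536985, entry 390, fold 1.30) covered them. A further 2 Foxa2 sites in the gene, 32677 and 41568 bp after the start, were also called with the same 3 ligands (chr3:129564846-129565280 and chr3:129573807-129574101). The sites at chr3:129530540-129530886 and chr3:129591423-129592150 were called with GW3965 and T09. LXR was called with T09 alone, at 30013 bp after the start (chr3:129562352-129562446, 95 bp, entry 498, q 0.0255) and 3298 bp beyond the gene, and the first of these lay in regions gained with GW3965 in WT and with GW4064 in Foxa2-KO.

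Elovl5 (chr9:77917365-77984519), an elongase of polyunsaturated chains, had, in the Veh and T09 lists, the earliest LXR peak of the 10 genes. The site was 6636 bp before the start, at chr9:77910612-77910847. With Veh the peak was 236 bp wide, entry 73 of 4803 with q 0.00057, and with T09 it was 185 bp wide, entry 60 of 8095 with q 0.00168. No LXR peak was called there with GW or in any Foxa2-KO list. A Foxa2 site stood 5915 bp before the start (chr9:77911329-77911571), next to it, in the lists of Veh, GW3965, T09 and GW4064-Veh, and both were in regions gained with GW3965. Elovl5 held 22 Foxa2 peaks, 9 of them with GW3965. One Foxa2 site in the gene (chr9:77926991-77927277) was in 4 lists, those of GW3965, T09, GW4064-Veh and GW4064. The sites at chr9:77919258-77919649, chr9:77950887-77951263 and, beyond the gene, chr9:77992095-77992347 were in the lists of the 3 ligands. The promoter peak in capitals in the Elovl5 line was entry 19379 of 21245 and in no other list. At chr9:77943393-77943605, 26134 bp into the gene, a Foxa2 peak with GW3965 overlapped an FXR peak with GW4064 (entry 10597 of 22705).

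The desaturases Scd1 and Scd2 lie close to each other on chromosome 19 and had unlike records. Scd1 (chr19:44394450-44407709) is the main hepatic desaturase. LXR and Foxa2 shared sites at both flanks. On the low-coordinate side, 5678 bp from the gene at chr19:44388420-44389125, 6 lists had a peak, those of LXR with Veh, GW and T09 and those of Foxa2 with GW3965, T09 and GW4064. The LXR peak there was 234 bp wide with T09 (entry 85 of 8095, q 0.00676), 142 bp with Veh (entry 1877 of 4803, q 0.0316) and 29 bp with GW (entry 4426 of 14219, q 0.0234). The Foxa2 peak was 568 bp wide with GW3965, 652 bp with T09 and 122 bp with GW4064, and was called with neither vehicle.

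On the high-coordinate side, 8780 bp from Scd1 at chr19:44416232-44416746, 5 lists had a peak. These were LXR with Veh (entry 689, q 0.0275) and GW (entry 7153, q 0.029), and Foxa2 with GW3965 (entry 1871), T09 (entry 3329) and GW4064-Veh (entry 6049 of 7306). T09 gave no LXR peak here and GW4064 no Foxa2 peak, the reverse of the low-coordinate side. Both flanking sites were inside regions gained with GW3965, and the high-coordinate one also inside a region gained with GW4064 in WT. Another recurring site, of Foxa2 with GW3965 and T09 (chr19:44389701-44389920), stood between the low-coordinate site and the gene. FXR was called at Scd1 in none of its 4 lists.

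With GW3965 the gained regions over Scd1 were entries 1, 5, 6 and 32 of the list, with folds from 3.15 to 5.43 over vehicle. Those over the flanking sites were entries 63 (fold 1.97) and 72 (fold 2.11). The fold was thus higher over the gene than over the flanking sites in that list. Foxa2 peaks of 1 list each also lay inside the regions over the gene. With GW3965 they were at chr19:44406925-44407189 in the gene and chr19:44394189-44394470 at its low-coordinate end. With T09 the peak was at chr19:44399003-44399152 in the gene. With GW4064 in WT, 5 regions of 226 to 1322 bp covered 17.6% of the body, the first at entry 203, and in Foxa2-KO 1 region of 63 bp lay 4602 bp off the gene.

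Scd2 (chr19:44293676-44306864), the desaturase better known from brain and fat, had no Foxa2, FXR or PPAR peak. Its 1 ChIP peak was LXR with T09, 7 bp wide at entry 4189 (q 0.0332). Gained regions covered 3.11% of its body with GW3965 and 0% in the other 3 comparisons. A region 7480 bp beyond the gene on the Scd1 side was gained with GW3965 (chr19:44314344-44315069, entry 168, fold 2.60) and with GW4064 in WT (chr19:44314280-44315079, entry 3315), at places that overlap.

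Thrsp (chr7:97412933-97417550), the shortest of the genes at 4.618 kb, had FXR and Foxa2 peaks and no LXR peak. The shared site was 1382 bp before the start at chr7:97418742-97419123. FXR was called there with GW4064-Veh (167 bp, entry 706 of 7883) and with GW4064 (322 bp, entry 459 of 22705), and Foxa2 with GW3965 (entry 8256) and T09 (entry 7184). A Foxa2 site 6223 bp before the start (chr7:97423554-97423993) was entry 1129 of 21245 with GW3965, the earliest Foxa2 peak of the 10 genes in that list, 2896 of 25318 with T09 and 14972 of 22666 with GW4064. Neither vehicle list had a Foxa2 peak at Thrsp. With GW3965 a single region of 9892 bp (chr7:97410182-97420073, entry 7, fold 1.77) took in the whole gene and the shared site. With GW4064 in WT, 2 regions covered the body. That at entry 199 held the 3′ end, and that at entry 41142 of 60528 held the rest and the promoter, so the first 50% of entries, in an order whose meaning is not stated, covered 14.2% of the gene.

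Most peaks at these genes were not among the first of their lists. Among the first 500 entries were 2 FXR peaks with GW4064 (Fasn and Thrsp), 1 LXR peak with Veh (Elovl5) and 4 LXR peaks with T09 (Elovl5, Scd1, Acaca and Elovl6), and no Foxa2 peak. Widths ran from 2 to 689 bp. Of the LXR peaks in WT, 7 of 18 were under 50 bp, as were 5 of the 12 FXR peaks in WT and 3 of the 97 Foxa2 peaks.

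**Figure D4:**
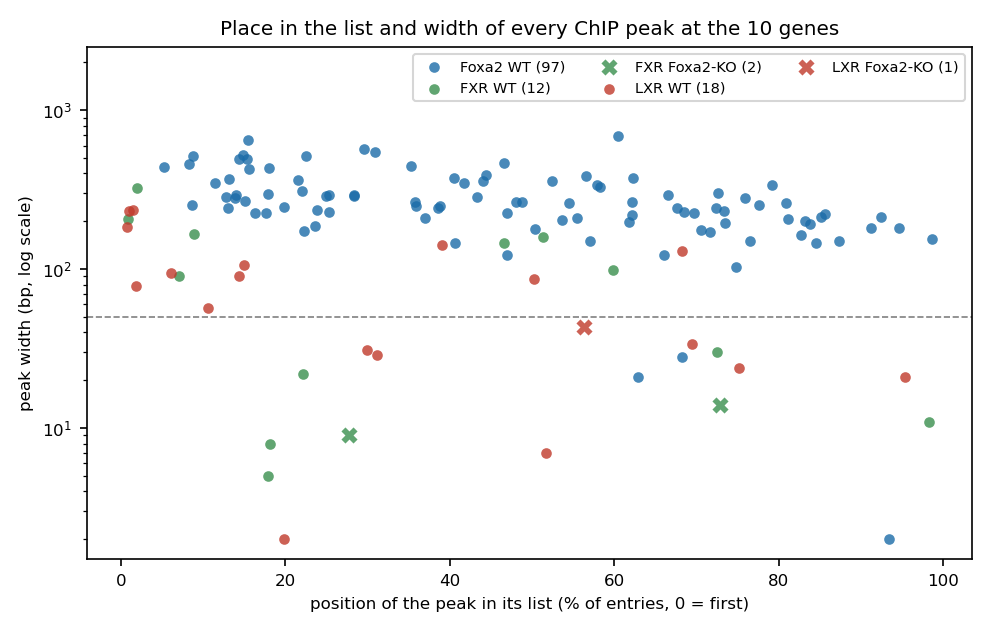
Width (y axis, bp on a log scale) of each of the 130 ChIP peaks at the 10 genes against its place in its own list (x axis, percent of entries, 0 being the first), coloured by antibody, with circles for WT and crosses for Foxa2-KO. The dashed line marks 50 bp. LXR and FXR peaks in the first 10% of entries are over 50 bp wide, and the 3 peaks of Foxa2-KO liver are under it.

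In Foxa2-KO liver few LXR and FXR peaks were called at these genes, and the LXR and FXR lists were shorter than in WT. LXR peaks lay at 1 of 10 genes over the 3 mutant lists (21.5% of all genes), at 0 with Veh (0.489%, from 161 entries), 0 with GW (16.3%, from 8803 entries) and 1, Acacb, with T09 (7.85%, from 2503 entries). FXR peaks lay at 2 of 10 over the 2 mutant lists (13.0%), at 1 with GW4064-Veh (7.84%), a 14 bp peak in Acaca, and at 1 with GW4064 (6.80%), a 9 bp peak in Acacb. These FXR counts are near the shares of all genes, as are the LXR counts with Veh and with T09. The mutant FXR lists hold no q above 0.015, and 28147 (GW4064-Veh) and 7254 (GW4064) of their entries were blank and not used. The WT FXR lists give no q, so the thresholds of the genotypes may differ. The LXR lists hold no q above 0.05 in either genotype, although the mutant lists are named with a looser limit on false discoveries than those of WT. None of the LXR and FXR sites of WT at Scd1, Fasn, Elovl5 or Thrsp had a peak in a mutant list. The LXR site in Acacb was called with T09 in both genotypes. Foxa2 lists exist for WT alone, so Foxa2 sites could not be compared. The GW lists of LXR are closer in length, 14219 entries in WT and 8803 in the mutant. They held 6 peaks at 3 of the genes (25.5% of all genes) and 0 peaks (16.3%). The 6 WT peaks had a median width of 26.5 bp. Their density, 0.621 per 100 kb, was near the 0.647 of all genes. WT LXR lists rest on 1 sample and mutant lists on 3, and the difference between genotypes was not tested.

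The genes around this pathway were counted in the same way. Of 12 genes that supply acetyl-CoA, citrate and NADPH or activate the carboxylases, 2 were past 25% with GW3965, 0 with T09, 1 with GW4064 in WT and 0 in Foxa2-KO. Of all genes 2.26%, 1.54%, 1.94% and 1.66% were, for this list and the 3 that follow. Mid1ip1, the paralogue of Thrsp that activates acetyl-CoA carboxylase, was covered to 100% with GW3965 and 0% in the other 3 comparisons. Slc25a1, the mitochondrial citrate carrier, was at 39.2% with GW3965, 0% with T09 and 45.6% with GW4064 in WT. G6pdx, which makes NADPH in the pentose phosphate pathway, was at 21.7% with GW3965. LXR peaks in WT lay at 5 of the 12 (36.3% of all genes) and Foxa2 peaks at 11 (55.9%), the LXR share being near that of all genes.

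Of 18 partners in elongation and desaturation, 4 were past 25% with GW3965, 2 with T09, 2 with GW4064 in WT and 1 in Foxa2-KO. Elovl1, which elongates very long chains, was at 60.7% with GW3965, 0% with T09 and 61.8% with GW4064 in Foxa2-KO. Fads3, of the fatty acid desaturase cluster, was at 49.2% with GW3965 and 62.6% with T09. Oxsm, of mitochondrial fatty acid synthesis, was at 26.4% with GW3965. LXR peaks in WT lay at 6 of the 18 (36.3% of all genes) and Foxa2 peaks at 13 (55.9%), the LXR share again being near that of all genes.

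Of 14 regulators of lipogenic transcription, 3 were past 25% with GW3965, 0 with T09, 2 with GW4064 in WT and 4 in Foxa2-KO. Insig1, which holds SREBP in the endoplasmic reticulum, was at 69.4% with GW3965 and 0% in the other 3 comparisons. Mlxipl, the gene of ChREBP, was at 25.4% with GW3965 and 7.34% with T09. Srebf1, the gene of SREBP-1c, was at 76.9% with GW3965, 0% with T09, 48.5% with GW4064 in WT and 33.1% in Foxa2-KO. LXR peaks lay at 7 of the 14 in WT (36.3% of all genes) and at 7 of the 14 in Foxa2-KO (21.5%), which were in part different genes: Insig1, Scap and Rxra had them in WT and in no mutant list, and Mlx, Nr1h2 and Ppargc1b in Foxa2-KO and in no WT list. These 6, apart from Insig1, were named after their values were seen. Srebf1 and the thyroid hormone receptor gene Thrb had them in all 3 WT lists, and Srebf2 and Insig1 in 2.

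Of 12 genes of acylation and triglyceride assembly, 4 were past 25% with GW3965 and 4 with T09, and 0 with GW4064 in either genotype. Acsl1, which activates fatty acids, was at 85.5% with GW3965 and 51.6% with T09, and Gpat4, which starts glycerolipid synthesis, at 39.5% and 29.7%. Agpat2, of the next step, was at 66.5% and 0%. The counts of 4 rest in part on different genes, since Acsl1 and Gpat4 were past 25% with both agonists. The phosphatidate phosphatase genes Lpin1 (0% with GW3965, 55.9% with T09) and Lpin2 (19.4% and 42.9%), named after their values were seen, made up the rest of the T09 count. LXR peaks in WT lay at 3 of the 12 (36.3% of all genes) and Foxa2 peaks at 10 (55.9%). The difference from the 10 genes was not tested.

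**Figure D5:**
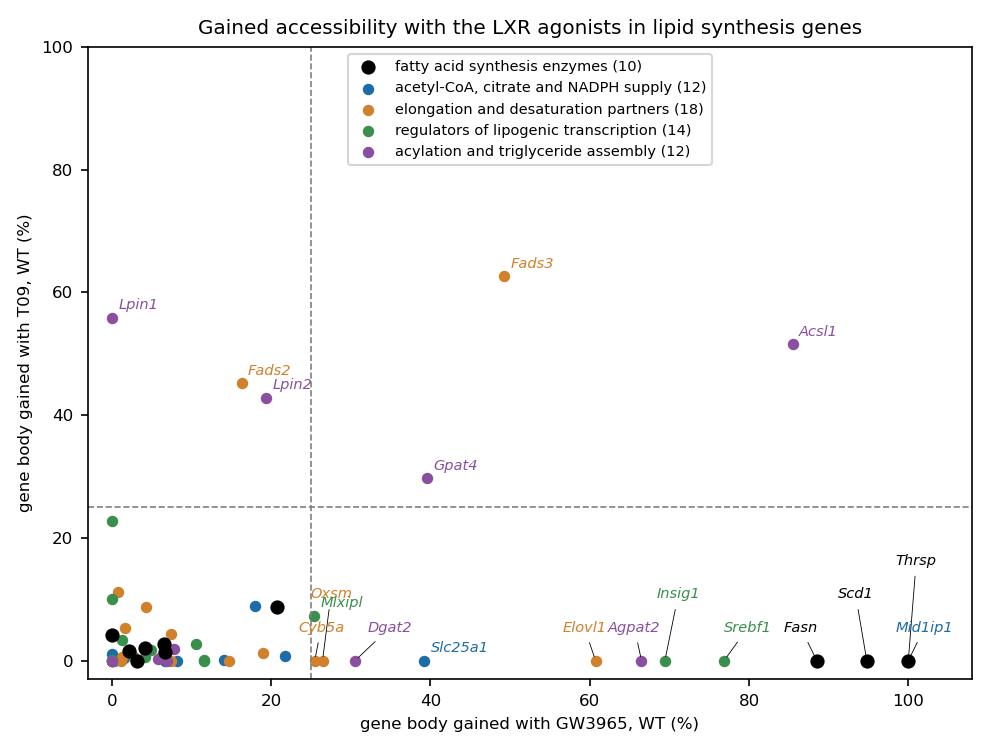
Percent of the gene body in gained regions with GW3965 (x axis) and with T09 (y axis) in WT liver, 1 point per gene, coloured by list, with genes at 25% or more in either labelled and dashed lines at 25%. Scd1, Fasn and Thrsp lie on the lower edge at 88.5% to 100%, with Mid1ip1 on the Thrsp point. Acsl1, Gpat4 and Fads3 are past both lines.

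By distance over the 4 ATAC percents, the gene most like Scd1 of all protein-coding genes was Hsp90ab1, 1.92 percentage points away (93.9% with GW3965, 0% with T09, 15.9% with GW4064 in WT and 0% in Foxa2-KO), followed by Ptov1, Dcaf11, Yif1b and Apoa2 at 13.2 to 17.7 points. None of the 5 had an LXR peak in more than 1 WT list. For Fasn the nearest were Yif1b, Hsp90ab1, Uox, Tlr12 and Gnmt at 32.0 to 32.7 points, none with an LXR peak in WT. None was close on all 4 values, since with GW4064 in Foxa2-KO Fasn stood at 31.2% and these 5 at 0% to 1.47%. The likeness is over 4 values per gene.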

How the data were processed

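Reads were aligned with BWA to mm10 per the submitters' processing notes (versions not given in the sources used here), and peaks were called with PeakSeq against input, or for ATAC-seq ligand against vehicle, per the labels. Of the 27 lists, 19 carry a q-value per peak and 5 a fold ratio over control and a -log10 p, all as deposited by the authors; q and fold are quoted unchanged and the -log10 p served no choice. The 8 lists without q were taken in order of entry, which is not stated to be a rank. Blank entries of the mutant FXR lists (28147 and 7254) were left out. Positions are 1-based. RNA-seq (37 samples) was not analysed here, nor were mutant ATAC samples with LXR agonists.

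A title with -Veh was taken to name the vehicle arm of that ligand. Gene spans and promoters came from RefSeq tables of GRCm38.p6. Peak centres were counted in the gene or within 10 kb, ATAC regions were merged and laid on gene bodies, and sites merged peaks sharing 1 base or more. With 1 list per group, no test was run. Members, lists, the 25% limit and the motifs were chosen with earlier results of these data known. All 10 members are named, with every recurring site and, of their other peaks, those the results turn on. Of other lists, at most the 3 genes with most coverage with GW3965 and those with LXR peaks in 2 or more WT lists are named. Besides these, Lpin1, Lpin2, Scap, Rxra, Mlx, Nr1h2, Ppargc1b, hepatocyte markers, Cfd and Cd68 are named, chosen after their values were seen. Counting was tested on simulated data with python 3.11.15 and numpy 2.4.6, and figures used matplotlib 3.10.9.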

Additional observations from a re-analysis of the deposited data

How the results depend on the processing

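Of 55 alternative counts of the 10 genes, 39 stayed within 1.5 times the reported count. In the first 500 entries of each list, Foxa2 peaks lay at 0 genes in place of 9, FXR peaks in WT at 2 in place of 6 and in Foxa2-KO at 0 in place of 2, and LXR peaks in WT at 4 in place of 8 and in Foxa2-KO at 0 in place of 1. What orders the Foxa2 lists and the FXR lists of WT is not stated. No share of all genes is given for the alternative settings. Within 50 kb, LXR peaks in Foxa2-KO lay at 3 genes and PPAR peaks at 1. With peaks of 50 bp or more, an alternative chosen after seeing the data, FXR and LXR peaks in Foxa2-KO lay at 0 genes. For ATAC with GW4064 in WT, a limit of 10% of the body gave 2 genes in place of 1, and the first 50% of the list's entries gave 0. In Foxa2-KO, the 10% limit gave 2 genes in place of 1, and the 50% limit, flanks of 10 kb, q of 0.01 or less and the first 50% of entries each gave 0. The ATAC counts with GW3965 (3) and T09 (0) moved by at most 1 gene. Where a stricter setting keeps fewer entries the count can only fall; otherwise the cause was not tested. The list of GW4064 in WT has no q, so the q limit gave no value there, and what its order of entries means is not stated. No paired analysis was possible because each group came as 1 list, and for the same reason no replicate could be left out. Read depth is not in these lists.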
